A study of Homo sapiens with 4 samples.

Results

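The genes described here encode receptors of the epidermal growth factor (EGF) receptor family, ligands that bind them and a feedback inhibitor, measured in a pair of human liver cancer lines after transfection of a microRNA mimic. They were taken as a fixed list of 9 symbols: the receptors EGFR, ERBB2 and ERBB3, the ligands AREG, EREG, HBEGF, TGFA and BTC, and the inhibitor ERRFI1. Of the 9, 7 had a probe set under the symbol among 17687 named genes. Of these, 6 had a mean value high enough to enter the tests, which covered 12381 genes, and BTC did not. ERBB2 and AREG were not analysed here.

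The 4 groups were HEP-G2 cells with the miR-4730 mimic, HEP-G2 cells with the negative control, Li-7 cells with the mimic and Li-7 cells with the negative control, each on a single Affymetrix array without replicates. The mimic is a synthetic small RNA that stands in for the microRNA, and per the labels it was delivered by lipid transfection at 3 nM, 24 h after seeding. The control was the same supplier's negative control, per the labels. HEP-G2 cells grew in DMEM and Li-7 cells in RPMI-1640, so line and medium cannot be told apart.

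Ligands of the EGF receptor family are made as membrane-anchored precursors and are cut loose by ADAM metalloproteases. A bound receptor pairs with another member of the family, the pair phosphorylates itself, and adaptors pass the signal to the RAS and ERK kinases and to PI3K. ERK signalling switches on early response genes and, with them, feedback inhibitors such as ERRFI1. In liver this pathway is known for driving hepatocyte proliferation during regeneration, and several of its ligands are made by liver tumour cells.

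The microRNA is shown first because it is the treatment common to both lines, with its seed in capitals. RefSeq places it on the plus strand of GRCh38.p14 at chr17:80419427-80419449, within the MIR4730 hairpin, and no other of the 2545 mature human microRNAs in the RefSeq table has the same bases 2 to 8. A transcript site for that seed would carry UCCGCCA. Member transcripts were not searched for it.
hsa-miR-4730: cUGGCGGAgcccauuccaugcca

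The study names HMGA1, an architectural chromatin protein, as the gene the microRNA acts on. HMGA1 stood at 11.61 with the mimic and 14.79 with the control in HEP-G2, and at 10.91 with the mimic and 14.93 with the control in Li-7. Both mimic arrays lay far under their controls. It fell by 3.59 on the log2-like scale (SE 0.29, 12.1-fold, limma, Benjamini-Hochberg adjusted p = 0.0241).

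Values are the authors' deposited, log2-like probe set values, and a difference of 1 is read as 2-fold on that scale. A value was called above background where it exceeded 95% of the negative control probe sets on the same array, a limit of 8.20 and 8.35 for HEP-G2 mimic and control and 7.99 and 8.72 for Li-7 mimic and control. Median values of all probe sets lay between 7.03 and 7.17. The liver identity of the lines was checked on 7 measured markers of 8 (HNF4A was not analysed here). All 7 were above background on both HEP-G2 arrays, against 1 on the Li-7 mimic array and 0 on the Li-7 control array. ALB, serum albumin, stood at 12.21 and 12.46 on the HEP-G2 mimic and control arrays, against 7.19 and 7.30 on the Li-7 mimic and control arrays. AFP, alpha-fetoprotein, stood at 17.17 and 16.71 in HEP-G2, against 3.92 and 4.75 in Li-7, mimic before control. The Li-7 arrays thus lacked defining hepatocyte transcripts above background, SERPINA1 with the mimic (8.40) being the exception. That value was over the 7.99 limit of its array but under the 8.72 limit of the Li-7 control array. Of 10 markers of blood, endothelial and stromal cells, 0 were above background on either HEP-G2 array and 1 was on each Li-7 array. That gene was LUM, the stromal proteoglycan lumican, at 9.26 with the mimic and 8.75 with the control. The control value was only just over its limit of 8.72. Values on the linear scale, summed over the stromal, endothelial and blood list, were 652 and 579 on the HEP-G2 mimic and control arrays and 1080 and 923 on the Li-7 mimic and control arrays. The part of such cells in the results was not tested.

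EGFR, the receptor for EGF, TGF-alpha, amphiregulin and several other ligands, stood higher with the mimic in both lines. In HEP-G2 it was at 10.50 on the mimic array and 8.50 on the control array, a difference of 2.01 or 4.02-fold. In Li-7 it was at 11.72 on the mimic array and 10.66 on the control array, a difference of 1.05 or 2.08-fold. Both mimic values lay above their own control, and the 4 arrays in descending order were Li-7 mimic, Li-7 control, HEP-G2 mimic and HEP-G2 control. All 4 were above background, the HEP-G2 control only narrowly. Only 0.452% of genes tested had a difference as high in HEP-G2, and 3.11% in Li-7. The mean change of 1.53 (SE 0.30, higher in 2 of 2 lines) did not pass the limma test over all genes (adjusted p = 0.0844, range 0.032 to 1 over the alternatives), and EGFR was past the threshold in 3 of 14 settings.

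ERBB3, the receptor with little kinase activity of its own that binds neuregulins and signals through its partners, was measured well above background on every array. It stood at 13.21 with the mimic and 12.95 with the control in HEP-G2. The Li-7 values were 10.36 with the mimic and 9.80 with the control. The lines did not overlap, whatever the treatment, and the mimic differences were small beside the gap between lines. Those differences were 0.26 in HEP-G2 and 0.56 in Li-7, and the mean of 0.41 (SE 0.25) did not pass (limma adjusted p = 0.42).

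TGFA, which encodes the EGFR ligand TGF-alpha, was at 7.15 with the mimic and 5.89 with the control in HEP-G2. Li-7 cells gave 10.14 with the mimic and 9.50 with the control. It was above background only in Li-7, so that the HEP-G2 difference of 1.26 (2.39-fold) was between dim values, whereas the Li-7 difference of 0.64 (1.56-fold) was not. The mean change was 0.95 (SE 0.27, limma adjusted p = 0.143), with the same sign in both lines.

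HBEGF, heparin-binding EGF-like growth factor, is a ligand of EGFR and ERBB4. Its values in HEP-G2 were 7.72 with the mimic and 6.39 with the control. In Li-7 they were 8.13 with the mimic and 7.58 with the control. The mimic array was the higher one in each line, but only the Li-7 mimic array was above background. Its value was over the 7.99 limit of that array but under the 8.72 limit of the Li-7 control array. Differences were 1.33 (2.51-fold) in HEP-G2 and 0.55 (1.47-fold) in Li-7, and the mean of 0.94 (SE 0.28) did not pass (limma adjusted p = 0.157).

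EREG encodes epiregulin, a ligand of EGFR and ERBB4, and its arrays separated by line. In Li-7 it was at 9.95 with the mimic and 8.44 with the control, a difference of 1.51 or 2.84-fold. In HEP-G2 it was at 4.17 with the mimic and 4.28 with the control, a difference of -0.11. Only the Li-7 mimic array was above background. The Li-7 control value lay just under the 8.72 limit of its own array but over the 7.99 limit of the Li-7 mimic array. Both HEP-G2 arrays were near the median of the negative control probe sets, 4.26 and 4.34 on the mimic and control arrays. The Li-7 difference ranked 103 from the top of 12381 genes. The mean change of 0.70 (SE 0.39) did not pass (limma adjusted p = 0.382), and the gap of -1.62 between the HEP-G2 and Li-7 responses could not be tested with 1 array per group.

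BTC, betacellulin, was at 4.36 and 4.42 on the HEP-G2 mimic and control arrays and at 4.66 and 4.91 on the Li-7 mimic and control arrays. It was under background on all 4 arrays, was left out of the tests by the filter on dim genes, and differed by -0.06 in HEP-G2 and -0.25 in Li-7. EREG, AREG, BTC and the ligand gene EPGN are neighbours on chromosome 4 in RefSeq, in the order EPGN, EREG, AREG and BTC, with 2 long non-coding RNA entries between AREG and BTC. EPGN, epigen, was also under background on every array, at 4.06 and 3.32 in HEP-G2 and 3.45 and 3.68 in Li-7, mimic before control. Of the 3 measured ligand genes of this cluster, EREG was thus the 1 above background on any array.

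ERRFI1, also called MIG6, binds the kinase domain of EGFR and blocks it. It stood at 17.08 with the mimic and 16.86 with the control in HEP-G2, and at 16.25 with the mimic and 15.99 with the control in Li-7. The probe set was bright on every array and close to the top of the deposited scale, which ended at 18.31. Differences were 0.23 in HEP-G2, which turned to -0.20 after quantile normalization, and 0.26 in Li-7. The mean change of 0.24 (SE 0.24) did not pass (limma adjusted p = 0.637), and after quantile normalization it was 0.02.

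**Figure D1:**
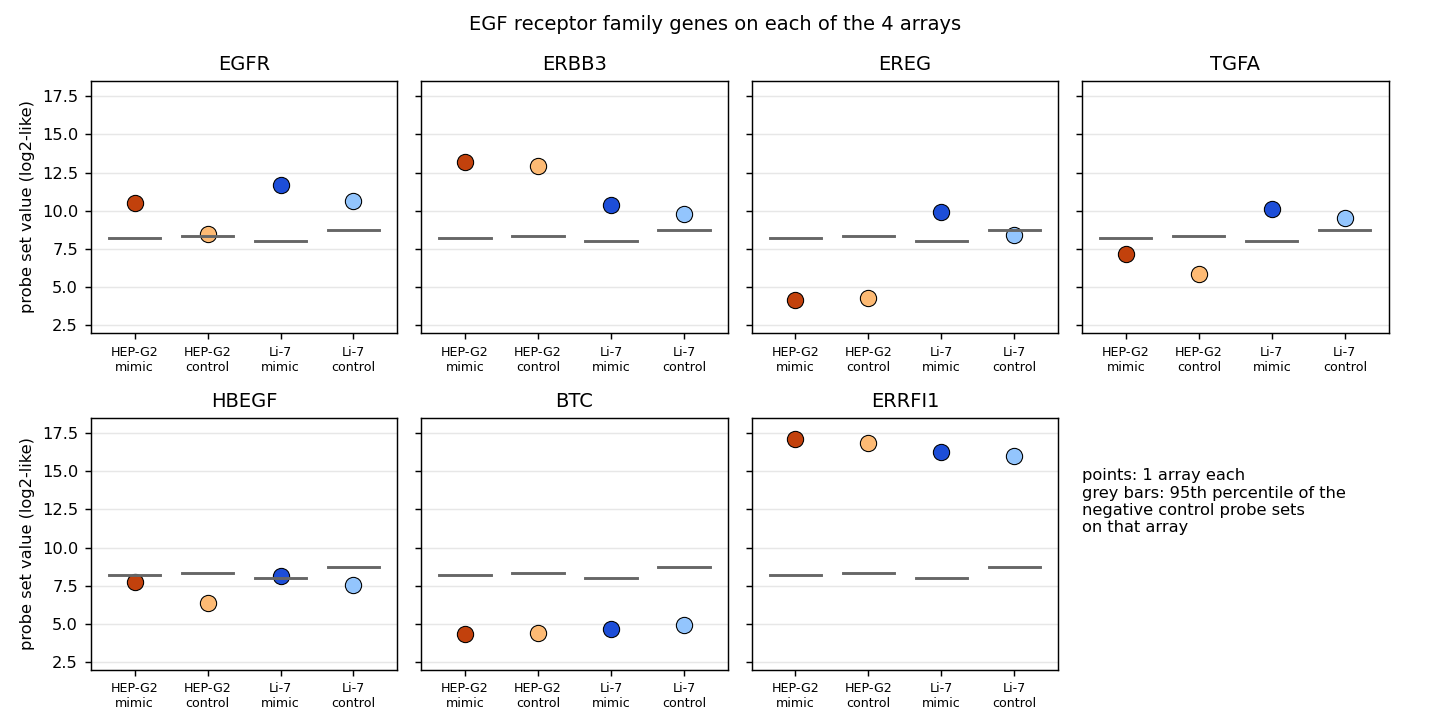
Deposited log2-like value (vertical axis) of 7 genes on each of the 4 arrays, with the mimic left of the control in each line; grey bars mark the background limit of each array. EGFR, ERBB3 and ERRFI1 lay above the bar on all arrays, TGFA on both Li-7 arrays, EREG and HBEGF on the Li-7 mimic array and BTC on none.

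As a group, 5 of the 6 tested genes were higher with the mimic in both lines by sign, EREG being the exception. After quantile normalization the count was 4, since ERRFI1 then stood at -0.20 in HEP-G2. Over all genes tested, 34.1% were higher in both lines. The median of the mean changes was 0.82 for the 6 genes and 0.03 for all genes tested, with medians of 0.76 in HEP-G2 and 0.60 in Li-7 against 0.02 in each line for all genes. In HEP-G2, 3 of the 6 were at least 2-fold higher with the mimic (EGFR, HBEGF and TGFA), where 5.77% of all genes were. HBEGF and TGFA were under background on both HEP-G2 arrays. In Li-7, 2 of the 6 were at least 2-fold higher (EGFR and EREG), where 3.72% of all genes were. The Li-7 control value of EREG was under background. EGFR alone was at least 2-fold higher in both lines, as were 1.03% of all genes.

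None of the 6 passed the limma test of the mimic response common to both lines, which called 0.42% of genes tested. At an unadjusted p under 0.05, 3 of the 6 were higher (EGFR, HBEGF and TGFA), where 9.75% of all genes were. For HBEGF and TGFA, both HEP-G2 values were under background. The receptor, ligand and inhibitor genes were listed with earlier results of these data known, so these counts are a description. The fit leaves 1 residual degree of freedom per gene, against 5.85 prior degrees of freedom. Its SEs and p-values thus rest on the disagreement between the lines, mostly as pooled over all genes and less on the gene's own. For ERRFI1 the SE was 0.24, and 0.02 with an ordinary t statistic. The spread between cultures was not measured. In bulk RNA, fewer cells expressing a gene and less RNA per cell cannot be told apart.

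**Figure D2:**
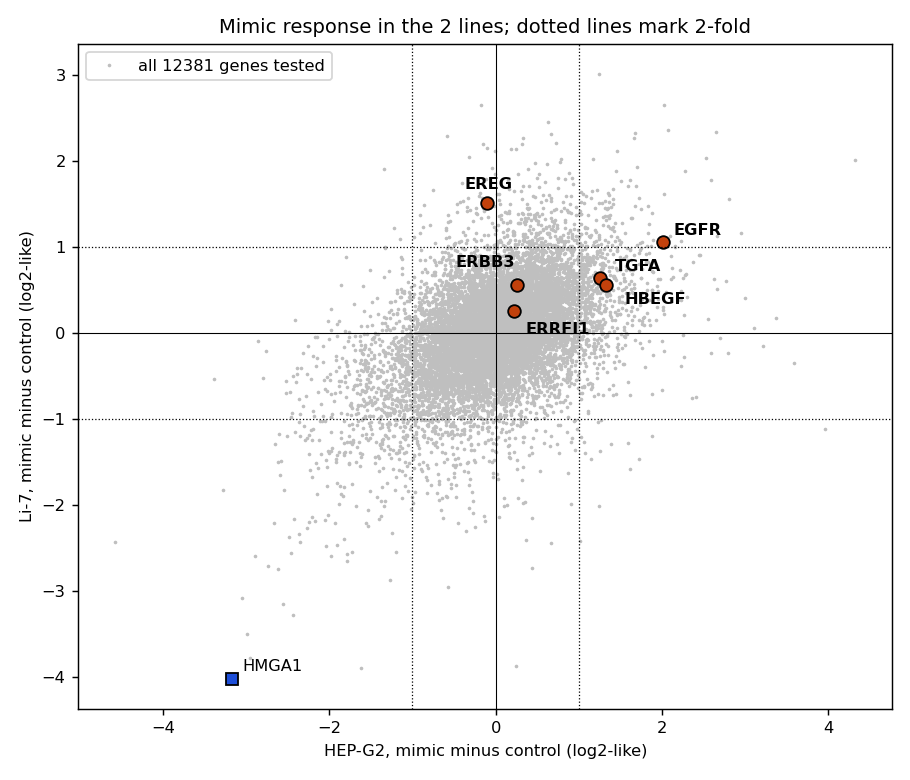
Mimic minus control on the log2-like scale in HEP-G2 (horizontal axis) and Li-7 (vertical axis) for 12381 genes (grey), the 6 tested receptor, ligand and inhibitor genes (orange circles) and HMGA1 (blue square), with dotted lines at 2-fold. EGFR lay past 2-fold in both lines, HBEGF and TGFA in HEP-G2, EREG in Li-7, and ERBB3 and ERRFI1 in neither.

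The lines were compared with treatment in the model. EREG entered the tests only through its Li-7 values, since both HEP-G2 values were under the filter value of 4.90, so its line difference is given as a description. Of the other 5 tested genes, the limma test of HEP-G2 against Li-7 called 4, against 44.9% of all genes tested. ERBB3 was higher in HEP-G2 by 3.00 (SE 0.25, 8.02-fold, limma adjusted p = 0.000104). ERRFI1 was higher in HEP-G2 by 0.85 (SE 0.24, 1.80-fold, limma adjusted p = 0.0275). Genes called higher in HEP-G2 made up 20.7% of all tested.

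EGFR and TGFA ran the other way. TGFA was lower in HEP-G2 (-3.30, SE 0.27, limma adjusted p = 9.6e-05), where both its values were under background, so that the size of the gap is uncertain. The difference of EREG was -4.97, with both HEP-G2 values near the level of the negative control probe sets. EGFR was lower in HEP-G2 (-1.69, SE 0.30, 3.22-fold, limma adjusted p = 0.00393), with all values above background. HBEGF stood at -0.81 (SE 0.28) and did not pass (limma adjusted p = 0.056), although it did with the filter at the median gene (0.0391) and with the filter on background (0.0433). Genes called lower in HEP-G2 made up 24.3% of all tested. The 2 arrays of a line differ in treatment and there was no replicate. The spread in this test is thus the disagreement between treatments, again mostly as pooled over all genes. With treatment left out of the model, ERBB3 and TGFA passed, and EGFR and ERRFI1 did not (adjusted p = 0.13 and 0.0711). With an ordinary t statistic in place of the moderated one, none of them passed.

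**Figure D3:**
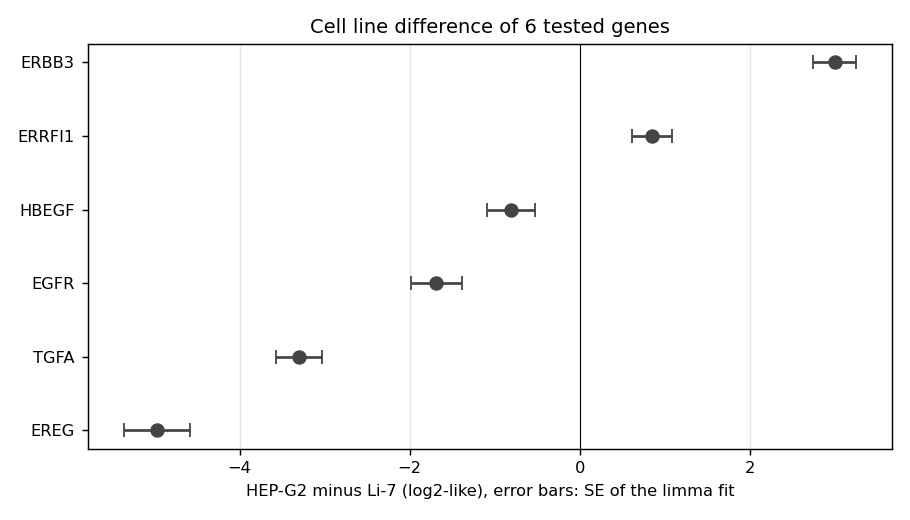
HEP-G2 minus Li-7 on the log2-like scale for the 6 tested genes, as the line coefficient of the limma fit over 4 arrays with its SE; EREG is shown as a description. ERBB3 and ERRFI1 lay to the right of 0 (higher in HEP-G2), and HBEGF, EGFR, TGFA and EREG to the left, EREG farthest at -4.97.

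Promoters of the 3 genes with the largest mean change (EGFR, TGFA and HBEGF) and of EREG, which was past 2-fold in Li-7 and not in HEP-G2, are printed as sequence context. They were picked by response, and a link between promoter elements and response was not tested. Each is the RefSeq window (GRCh38.p14) of 250 bases before and 50 after the gene's first listed start, and capitals mark the GC box, GGGCGG or CCGCCC on the other strand, the motif read by SP1-family factors. The windows are chr7:55018767-55019066 on the plus strand, chr2:70553777-70554076 on the minus strand, chr5:140346554-140346853 on the minus strand and chr4:74364895-74365194 on the plus strand.
EGFR promoter: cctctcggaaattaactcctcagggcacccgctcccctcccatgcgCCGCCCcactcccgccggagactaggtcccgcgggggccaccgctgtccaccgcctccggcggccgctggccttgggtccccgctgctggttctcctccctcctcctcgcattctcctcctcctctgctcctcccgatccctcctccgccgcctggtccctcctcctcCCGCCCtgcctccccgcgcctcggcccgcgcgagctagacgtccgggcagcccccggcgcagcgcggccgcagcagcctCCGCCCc
TGFA promoter: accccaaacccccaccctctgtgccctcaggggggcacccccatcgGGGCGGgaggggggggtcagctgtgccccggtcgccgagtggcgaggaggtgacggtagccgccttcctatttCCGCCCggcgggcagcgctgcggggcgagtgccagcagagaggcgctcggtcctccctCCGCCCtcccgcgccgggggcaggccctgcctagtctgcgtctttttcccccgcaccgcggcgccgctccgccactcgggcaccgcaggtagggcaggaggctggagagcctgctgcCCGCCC
HBEGF promoter: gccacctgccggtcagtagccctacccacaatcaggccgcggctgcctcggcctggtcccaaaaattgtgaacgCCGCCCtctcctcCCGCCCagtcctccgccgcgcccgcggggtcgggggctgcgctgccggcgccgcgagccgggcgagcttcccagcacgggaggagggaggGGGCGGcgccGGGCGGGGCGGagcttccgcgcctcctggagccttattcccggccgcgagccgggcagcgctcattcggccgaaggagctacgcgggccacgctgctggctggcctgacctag
EREG promoter: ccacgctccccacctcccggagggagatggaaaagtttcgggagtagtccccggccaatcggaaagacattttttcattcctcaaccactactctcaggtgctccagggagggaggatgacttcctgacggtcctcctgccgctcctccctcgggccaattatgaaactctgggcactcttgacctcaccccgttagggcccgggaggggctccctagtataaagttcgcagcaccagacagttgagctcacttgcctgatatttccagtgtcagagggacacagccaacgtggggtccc

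The EGFR window held 3 GC boxes, a count reached by 15.8% of the 35116 promoter windows in the table. TGFA held 4 (reached by 9.06%) and HBEGF held 5 (reached by 5.14%), of which the pair nearest the start overlap by 1 base. EREG held 0, and 45% of all windows held at least 1. Windows of ERRFI1, BTC and AREG held 1 each, and that of ERBB2 held 0. The first window of HMGA1, which fell, also held 5. The AP-1 motif, TGACTCA or TGAGTCA on the other strand, was in none of the 4 printed windows and in 4.95% of all windows. A second RefSeq start of EGFR, at chr7:55109589-55109888, had 2 AP-1 motifs and no GC box. The second RefSeq window of TGFA, at chr2:70553397-70553696, had 0 GC boxes and an A and T share of 37%. The share of A and T was 24.7% in the EGFR and TGFA windows, 25% in HBEGF and 42.3% in EREG, with a median of 41.3% over all windows. Binding was not measured, and a match of letters is no evidence of use.

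The genes whose 4 values moved most like those of EGFR and TGFA, the members with the largest mean changes, were found by Euclidean distance between mean-centred values over the 4 arrays. For EGFR these were HEG1, at a distance of 0.17, IER2 at 0.23 and LGALS1 at 0.26, where the median gene lay at 2.48. HEG1 stood at 9.48 with the mimic and 7.25 with the control in HEP-G2, and at 10.52 with the mimic and 9.45 with the control in Li-7. For TGFA they were GLIS2 at 0.11, CD109 at 0.16 and FZD6 at 0.18, where the median gene lay at 3.49. With 4 arrays a small distance is a description only.

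Other genes of the EGF receptor family were mostly dim, and their mimic differences were small. Of the remaining receptor and 6 further ligands, all 7 had a probe set and 5 were tested, and none passed (limma, 0 also at an unadjusted p under 0.05). The median of the mean changes was -0.02, against 0.03 for all genes tested. NRG4, a neuregulin that binds ERBB4, was the 1 above background on any array, at 9.51 with the mimic and 9.63 with the control in Li-7, against 3.91 and 3.70 in HEP-G2. ERBB4, the fourth receptor of the family, lay between 6.31 and 6.57 on all arrays. EGF was at 6.77 and 6.60 in HEP-G2 and at 4.63 and 4.97 in Li-7, mimic before control, under background throughout.

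Genes that release the ligands had 7 list members, of which 5 were tested and 0 passed the limma test over all genes. By sign all 5 were higher in both lines, as were 34.1% of all genes, and 2 were higher at an unadjusted p under 0.05, as were 9.75% of all genes. FRMD8, which was too dim to be tested, stood at -0.13 in HEP-G2 and -0.56 in Li-7. The list median was 0.39. ADAM9, a membrane metalloprotease, was at 12.70 with the mimic and 11.48 with the control in HEP-G2, and at 14.63 with the mimic and 13.69 with the control in Li-7 (mean change 1.08, SE 0.25, limma adjusted p = 0.103). ADAM17, the main sheddase of TGF-alpha, amphiregulin and HB-EGF, was at 11.62 and 10.98 in HEP-G2 and at 11.54 and 10.77 in Li-7, mimic before control (mean change 0.70, limma adjusted p = 0.194). RHBDF2, which brings ADAM17 to the cell surface, stood at 0.33 in HEP-G2 and 0.46 in Li-7 as mimic minus control.

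Adaptors that couple the receptors to RAS were split. Of 10 tested, 6 had a positive and 4 a negative mean change, near the share over all genes, 6513 of 12381 being positive. The median was 0.11, against 0.03 for all genes tested, and 0 passed (limma, 0 also at an unadjusted p under 0.05). SOS2, a RAS exchange factor, stood at -0.50 as a mean change (SE 0.24, adjusted p = 0.314) and was under background on all arrays. EPS8, an EGF receptor substrate, stood at 0.88 in HEP-G2 and 0.10 in Li-7.

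Among 12 tested genes that restrain the receptors or act on their turnover in either direction, 9 had a positive mean change, and the median was 0.41. Over all 12381 genes, 6513 had a positive mean change. None of the 12 passed the limma test, and 4 were higher at an unadjusted p under 0.05, as were 9.75% of all genes. UBASH3B, a phosphatase that binds the ubiquitin ligase CBL, was at 10.75 with the mimic and 8.92 with the control in HEP-G2. Its Li-7 values were 12.60 with the mimic and 11.59 with the control (mean change 1.42, SE 0.29, limma adjusted p = 0.0851). Like EGFR, it was more than 2-fold higher in both lines and above background on every array. LRIG1, a membrane protein that promotes receptor degradation, stood at 1.11 in HEP-G2 and 0.79 in Li-7 (limma adjusted p = 0.126). SOCS5, of the suppressor of cytokine signalling family, stood at 0.99 and 0.81 (limma adjusted p = 0.132). The 3 with a negative mean change were lower in both lines, as were 3844 of all 12381 genes. PTPN1 stood at -0.65 in HEP-G2 and -0.48 in Li-7 and RNF41 at -0.71 and -0.23, both above background on every array. LRIG2, under background throughout, stood at -0.49 and -0.10.

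ERK output genes, chosen as transcripts that follow ERK activity, had a median mean change of 0.36. Of 10 tested, 7 were positive, 0 passed (limma) and 1 was higher at an unadjusted p under 0.05. The last count is near the 9.75% of all genes, 6513 of which were positive. PHLDA1 stood at 1.24 in HEP-G2 and 0.61 in Li-7 as mimic minus control. CCND1, cyclin D1, stood at 1.06 and 0.28. DUSP6, an ERK phosphatase, was at 13.57 with the mimic and 12.29 with the control in HEP-G2, and at 10.95 with the mimic and 11.16 with the control in Li-7. The 3 with a negative mean change were ETV4, ETV5 and EPHA4. ETV4 stood at 0.21 in HEP-G2 and -0.57 in Li-7 and ETV5 at 0.10 and -0.63, both above background on every array. EPHA4, under background throughout, stood at -0.89 and 0.39. The list median was 0.66 in HEP-G2 and 0.15 in Li-7, and 5 of the 10 had opposite signs in the lines, as did 34.9% of all genes.

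The early response genes, transcription factors and other genes induced within minutes to hours of EGF, had the highest median of the lists, 1.31, with 1.79 in HEP-G2 and 0.72 in Li-7. Of 10 tested, 9 had a positive mean change, against 6513 of all 12381 genes, and 6 were higher at an unadjusted p under 0.05, against 9.75% of all genes, but 0 passed over all genes (limma). JUN and KLF6 passed in 5 and 4 of 14 settings. Of the 10, 3 were above background on all 4 arrays and 2 on none. MYC was the 1 with a negative mean change (-0.62, SE 0.37, limma adjusted p = 0.413). It was at 11.14 with the mimic and 12.50 with the control in HEP-G2, and at 12.27 and 12.15 in Li-7, above background throughout. JUN, an AP-1 subunit, was at 7.99 with the mimic and 5.19 with the control in HEP-G2, under background on both. In Li-7 it was at 10.37 with the mimic and 8.82 with the control, above background on both (mean change 2.18, SE 0.34, limma adjusted p = 0.0601). KLF6, a zinc finger factor, was at 13.77 with the mimic and 11.94 with the control in HEP-G2, and at 13.81 with the mimic and 12.65 with the control in Li-7 (mean change 1.5, limma adjusted p = 0.0752). EGR1, a zinc finger factor induced through ERK, was at 11.33 with the mimic and 7.38 with the control in HEP-G2, a difference of 3.96 and rank 2 from the top of all genes. In Li-7 it was at 6.04 with the mimic and 7.16 with the control, both under background (mean change 1.42, SE 1.00, limma adjusted p = 0.484).

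**Figure D4:**
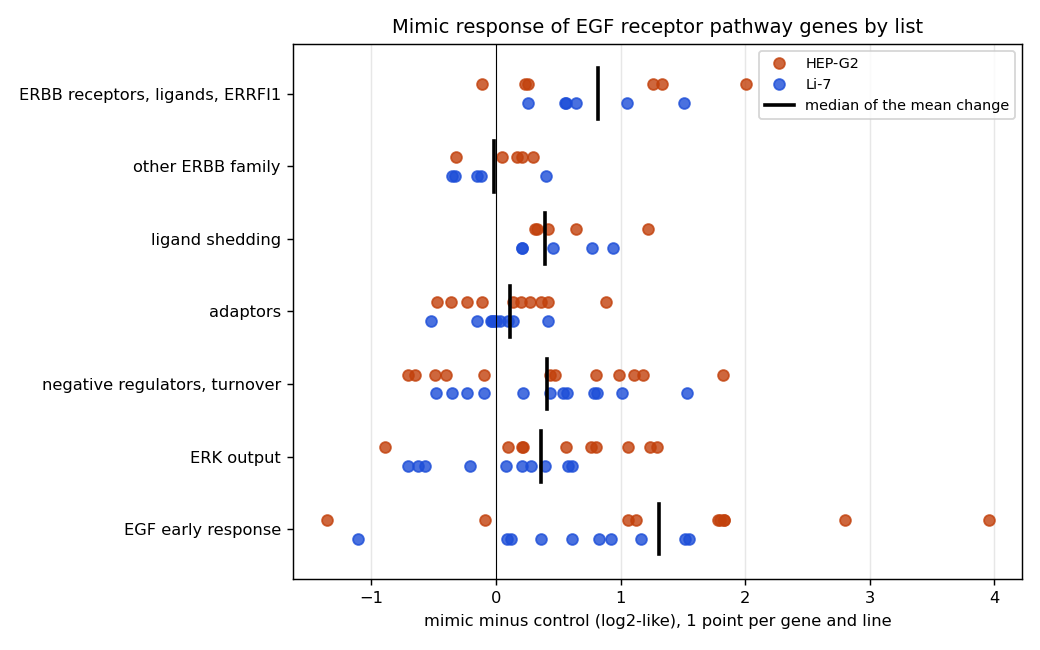
Mimic minus control on the log2-like scale for each tested gene of 7 lists, with 1 point per gene for HEP-G2 (orange, upper) and Li-7 (blue, lower) and a black bar at the median of the mean changes. The bar stood at 1.31 for early response genes and 0.82 for the receptor, ligand and inhibitor genes, and between -0.02 and 0.41 for the other lists.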

How the data were processed

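Total RNA of the cells was hybridised to 4 Affymetrix arrays, 1 per line and treatment, and groups were taken from the sample titles. The authors deposited 1 table of log2-like probe set values. Per the submitters' processing notes, Affymetrix Expression Console and Transcriptome Analysis Console were used; of background correction, normalization, log base and genome build, the sources at hand state nothing. The values (1.48 to 18.31) were read as log2 and may be stretched. The number of arrays limits the precision.

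Of 24351 probe sets, 17709 had exactly 1 gene in the platform annotation and 0 had more than 1; the others stayed unnamed. All 17709 Entrez identifiers matched RefSeq (GRCh38.p14). The brightest probe set stood for a gene (20 genes had several). Genes with a mean under the 30th percentile of named genes (4.90) were left out, which kept 12381.

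limma 3.58.1 in R 4.3.3 fitted cell line and treatment (lmFit, eBayes, prior degrees of freedom 5.85), with Benjamini-Hochberg adjustment over all genes kept and a threshold of 0.05. Differences within a line have no test and were counted at 2-fold. The procedure was run on simulated arrays with no line difference and the same change in both lines. No result here rests on that run. Nothing in the labels says whether cultures were separate.

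The members, lists and tests were chosen with earlier results of these data known. Named were the 9 members, HMGA1 and in each list up to 3 genes by absolute mean change. Marker genes and the 3 genes most like each of 2 members were also named. EPGN was named for its position, and LUM, ALB, AFP, SERPINA1, MYC, PTPN1, RNF41, LRIG2, ETV4, ETV5 and EPHA4 after their values were seen. Alternatives were normalization, filter, probe set rule, variance moderation, model and fold limit; normalization over the genes kept was added after seeing the data. Sequences are from RefSeq tables; 8 of the 9 members had a promoter window.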

Additional observations from a re-analysis of the deposited data

Results flagged for a closer look

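Among the tested members and the genes that led each list, 6 had opposite signs of mimic minus control in HEP-G2 and Li-7. With 1 array per group the differences were not tested. Of all genes tested, 34.9% had opposite signs. The list leaders were picked by absolute mean change, which opposite signs make smaller, so the shares cannot be compared. EREG stood at -0.11 in HEP-G2 and 1.51 in Li-7, a gap of -1.62 (HEP-G2 minus Li-7), with both HEP-G2 values under background. EGR1 stood at 3.96 in HEP-G2 and -1.11 in Li-7, a gap of 5.07, with the HEP-G2 mimic array the only one above background. DUSP6 stood at 1.29 and -0.21, a gap of 1.5, with all arrays above background. The gaps of EGF (0.52), NRG4 (0.33) and ERBB4 (0.20) were between small differences, and EGF and ERBB4 were under background on every array.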

How the results depend on the processing

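The number of genes past the threshold for the mimic response common to both lines (52, 80.8% lower) depended on the processing. It was 87 after quantile normalization over all named genes and 264 (68.2% lower) over the genes kept, 366 (65.3% lower) with a filter at the median gene, 200 (70.5% lower) among genes above background on at least 1 array, 411 (61.6% lower) with an intensity trend, and 1 with an ordinary t statistic. It was 0 after cyclic loess over all named genes or over the genes kept and 0 in a model of treatment alone (limma; 2376, 2381 and 182 genes at an unadjusted p under 0.05). Of the receptor, ligand and inhibitor genes, 0 passed as deposited and 1, EGFR, passed with quantile normalization over the genes kept (adjusted p = 0.0441), with the filter at the median gene (0.0369) and with an intensity trend (0.032). Its mean change lay between 1.52 and 1.59 in all 14 settings. In this balanced design the filters, the variance moderation and the model cannot move a mean change or a line difference. Only normalization and the probe set rule could. Under those, all 6 genes kept the sign of their mean change and of their line difference. The HEP-G2 difference of ERRFI1, however, turned from 0.23 to -0.20 after quantile normalization over all named genes or over the genes kept. No gene that led a list reversed its mean change, and JUN passed in 5 of 14 settings, KLF6 in 4, UBASH3B in 2 and ADAM9 in 1.

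The line difference passed 5563 genes as deposited, 44.9% of those tested, and 1 with an ordinary t statistic. With treatment left out it passed 30.6% of genes tested. Of the 6 genes, EREG included, the counts were 5 as deposited, 0 with an ordinary t statistic and 3 with treatment left out. EREG is in the 5 and the 3 only as a description, since both its HEP-G2 values were under the filter value. Of the other 5 tested genes, 4 passed as deposited, and only ERBB3 and TGFA with treatment left out. HBEGF passed with the filter at the median gene and with the filter on background. Median centring moved the median line difference over all genes to 0.16, against -0.03 as deposited. A 1.5-fold limit gave 4032 genes in HEP-G2 (1491 at 2-fold) and 3112 in Li-7 (971 at 2-fold). The filter at the median gene removed EREG, which left 1 of the 6 genes, EGFR, past 2-fold in Li-7. No array could be left out, since each group had 1. No test of differences within a line, or between the lines' responses, was possible.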
